A study of Mus musculus with 23 samples.

Results

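Open chromatin was described at 10 genes of the disease-associated microglia and lipid programme, Apoe, Lpl, Cst7, Spp1, Gpnmb, Clec7a, Lgals3, Ch25h, Timp2 and Cd9, in microglia sorted from the mouse striatum. The genes were taken as a named list out of 21883 protein-coding genes. The list was chosen with earlier results of these data known, so comparisons with all regions are descriptive. A peak belonged to a gene when its summit lay in the gene body or within 20 kb of it on GRCm38 (mm10). This gave 1130 of the 1054137 deposited peaks. After the peaks of all libraries were merged into shared regions of 501 bp, 56 of 49124 regions belonged to the 10 genes. Cd9 had 18 of them, Timp2 8, Lgals3 6, Gpnmb 5, Apoe, Spp1 and Ch25h 4 each, Cst7 3, and Lpl and Clec7a 2 each.

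The libraries were made by ATAC-seq, in which a transposase cuts accessible DNA and inserts sequencing adaptors, so that open chromatin appears as peaks of fragments. Male mice of 8 to 10 weeks were either control offspring (CON) or offspring of dams with maternal immune activation (MIA), with an agent that the sources used here do not give. Each mouse had received saline (SAL) or lipopolysaccharide (LPS), a bacterial cell wall component that activates Toll-like receptor 4, into the peritoneum 18 hours before collection, the LPS at 4500 endotoxin units for each gram of the animal. There were 5 CON_SAL, 7 CON_LPS, 6 MIA_SAL and 5 MIA_LPS libraries, 12 LPS and 11 saline libraries in all. Cells of all groups came from papain-digested tissue freed of meninges and were sorted as P2RY12+, CD11b+, CD45-low live cells, and between 10560 and 25000 sorted cells went into a library. The sources used here give neither strain nor genotype.

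Disease-associated microglia are a state that microglia take up around amyloid plaques, dying neurons and damaged myelin, in which homeostatic genes are turned down and genes for lipid uptake, lysosomes and phagocytosis are turned up. Apolipoprotein E carries cholesterol and phospholipid between cells, lipoprotein lipase releases fatty acids from lipoproteins, and the receptor TREM2 senses lipids and lets the cell enter the full state. LPS drives a different, classically inflammatory response, and part of the same genes is used in both. An open region near a gene is a candidate regulatory element, and its presence does not measure transcription.

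The deposited lists held between 33949 and 68312 peaks. Since longer lists hold weaker peaks, only the 33949 best peaks of each list by the authors' −log10 p were used. The value given below for a region in a library is its rank score, which is 100 for the best peak of the list, close to 0 for the last, and 0 where the library had no peak in the region. It is a rank within a library and not an amount of signal. Read totals are unknown, so a region without a peak was not detected in that list and was not shown to be closed. Each library pools many cells, so a region open in more cells and a region more open in each cell cannot be told apart.

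Of the 10 microglia marker genes, 7 to 9 had a peak within 1 kb of a gene end in every library, with P2ry12, whose protein was used in the sort, in 8 of 11 saline and 4 of 12 LPS libraries and Gpr34 in 0 of 23. Of 8 astrocyte markers 1 to 3 had one, of 8 oligodendrocyte markers 1 to 2, of 8 neuronal markers 0 to 2 and of 6 endothelial markers 0 to 2. Among these Mog, an oligodendrocyte marker, had one in 6 of the 11 saline but 1 of the 12 LPS libraries. Of 8 markers of monocytes and neutrophils, none had such a peak in the 11 saline libraries, and 0 to 2 had one in the 12 LPS libraries. These were S100a8 in 10 and Mmp8 in 9 LPS libraries, while Ccr2, Ly6c2, S100a9, Plac8, Chil3 and Retnlg were at 0 in all 23. The number of regions open at this list's loci was 3 to 11 after saline and 6 to 13 after LPS. Of 8 markers of border-associated macrophages, Mrc1, Cd163, Lyve1, Pf4, Ms4a7 and Cd209f were at 0 in all 23 libraries, Cbr2 had an end peak in 8 of the saline and 11 of the LPS libraries, and F13a1 in none of the saline and 10 of the LPS libraries. The number of regions open at that list's loci was 9 to 18 after saline and 12 to 19 after LPS. S100a8, Mmp8 and F13a1 had end peaks more often and P2ry12 and Mog less often after LPS, and the part of these cell types in the changes below was not tested.

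The promoter sequences of the genes whose start of transcription carried an informative region are shown first, as the 250 bases before the start, 5′ to 3′ on the strand of the gene, from RefSeq on GRCm38.p6, which matched 9 of the 10 genes. Capitals mark matches to the searched motifs. Cst7 (chr2:150570165-150570414, plus strand) is shown because its start region changed with LPS, Lgals3 (chr14:47373610-47373859, plus strand) because regions inside the gene and upstream of it changed and the start region did not pass, Cd9 (chr6:125494761-125495010, minus strand) because its start was open in every library, and the more upstream Spp1 start (chr5:104434861-104435110, plus strand) because it held motif matches.
Cst7: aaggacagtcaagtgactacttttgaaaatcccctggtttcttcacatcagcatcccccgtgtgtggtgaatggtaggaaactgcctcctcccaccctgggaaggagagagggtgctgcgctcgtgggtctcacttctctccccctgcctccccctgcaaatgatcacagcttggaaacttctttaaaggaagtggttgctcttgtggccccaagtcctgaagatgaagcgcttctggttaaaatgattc
Lgals3: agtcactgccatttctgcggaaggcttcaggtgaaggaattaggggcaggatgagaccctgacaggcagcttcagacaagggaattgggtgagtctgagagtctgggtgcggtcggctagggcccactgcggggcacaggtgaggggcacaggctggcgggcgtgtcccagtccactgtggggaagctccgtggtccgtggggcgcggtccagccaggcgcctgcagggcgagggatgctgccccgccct
Cd9: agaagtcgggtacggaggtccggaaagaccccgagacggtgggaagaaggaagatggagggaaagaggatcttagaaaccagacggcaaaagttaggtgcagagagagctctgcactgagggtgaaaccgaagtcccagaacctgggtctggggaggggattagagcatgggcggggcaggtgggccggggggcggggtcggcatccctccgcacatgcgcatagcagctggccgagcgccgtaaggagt
Spp1: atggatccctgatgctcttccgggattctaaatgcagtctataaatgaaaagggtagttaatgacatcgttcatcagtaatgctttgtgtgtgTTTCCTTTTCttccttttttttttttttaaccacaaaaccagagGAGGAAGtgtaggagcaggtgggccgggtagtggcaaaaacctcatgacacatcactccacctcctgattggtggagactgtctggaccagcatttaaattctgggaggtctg
The motifs were searched as letters on both strands. GAGGAAG, for PU.1, the lineage factor of microglia and macrophages, was present in 10.6% of 32817 promoters of that length. TGANTCA for AP-1 was in 6.75%, TTGCNNAA for C/EBP in 9.57%, GGGA and TTCC spaced by 2 bases for NF-kB in 1.21%, GAAA and GAAA spaced by 2 bases for the interferon-stimulated response element (ISRE) in 2.97%, CTA and TAG spaced by 4 bases for MEF2 in 3.2% and CACGTG, the E-box of lysosomal genes, in 6.02%. The Spp1 start held an ISRE match from base -157 to -148 and a PU.1 match from -113 to -107. These matches do not overlap. A second Spp1 start held a C/EBP match from -156 to -149, and the Ch25h start held one from -112 to -105. The Cst7, Lgals3, Cd9, Timp2, Apoe, Gpnmb and Clec7a promoters held none of these letters in the window.

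At 6 of the 10 genes at least 1 region passed for LPS. How many of all genes had such a region was not counted, and a gene with more regions had more chances of a call. New or stronger regions were found at Apoe, Lpl, Cst7, Lgals3, Timp2 and Cd9, Cd9 also had a region lower in rank and 1 detected less often, and no region passed at Spp1, Gpnmb, Clec7a and Ch25h. In the exact conditional test of peak presence over both offspring groups, with Benjamini-Hochberg adjustment over 17547 regions, 6 of 26 testable member regions passed, 5 more often open after LPS and 1 more often open after saline. Of all testable regions 23.7% passed, 15.3% more open after LPS and 8.39% after saline, against 23.1% of the members' regions. The rank score, tested with limma over all 49124 regions, called 11 of 56, 9 higher and 2 lower after LPS, which is 19.6% against 20% of all regions (10.5% higher and 9.47% lower). The share of changed regions was thus near that of the genome, while the members' median difference in presence was 11.43 percentage points against -1.19 over all testable regions. The median rank difference of the 56 regions was -0.82 against -0.60 over all regions. Nothing in the labels says that the libraries are separate animals, so the p-values speak of the spread between libraries, which may be technical.

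**Figure D1:**
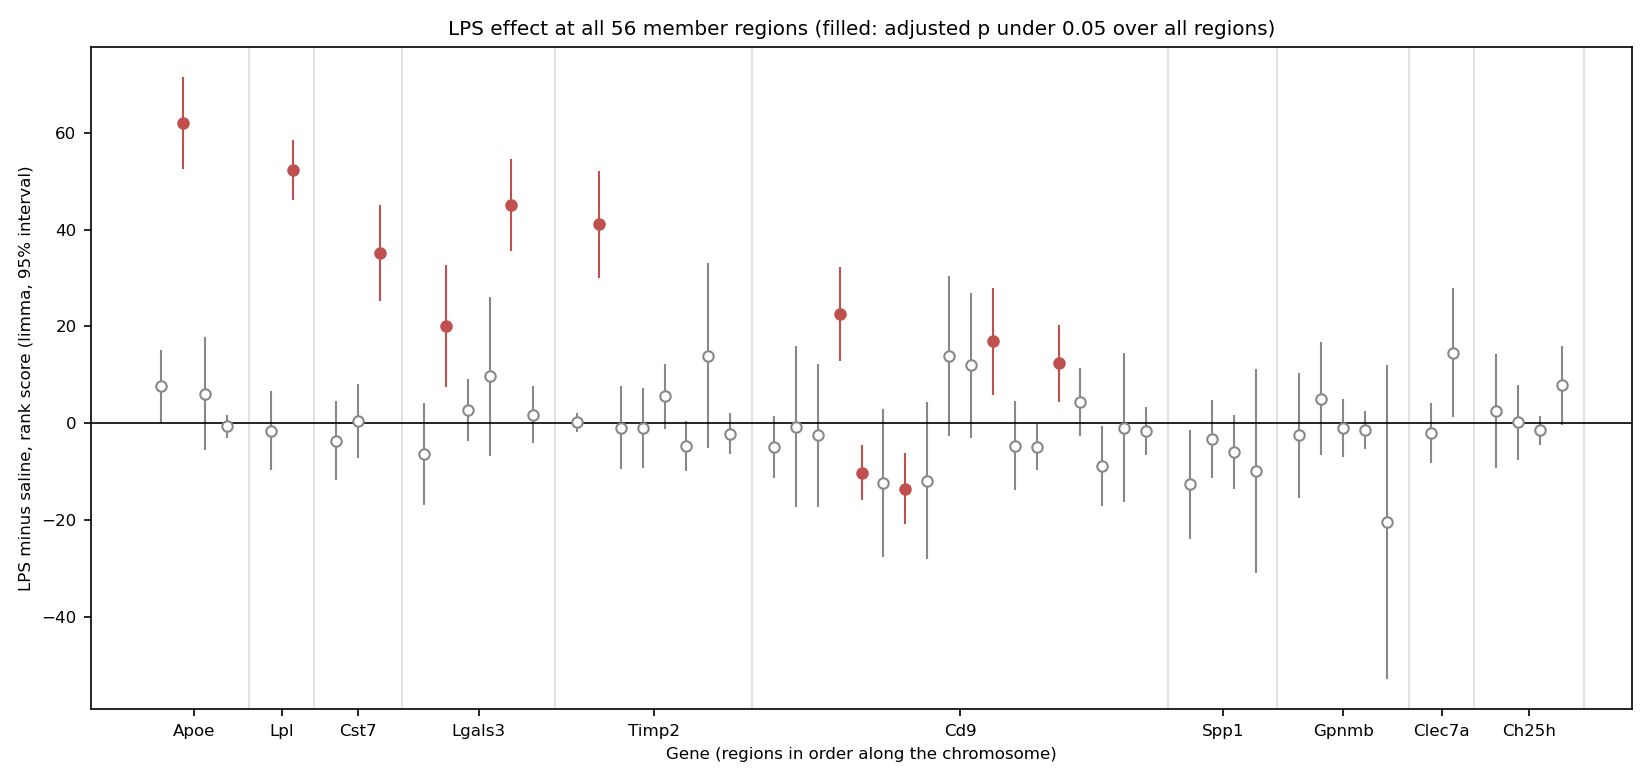
Difference of the rank score, LPS minus saline over both offspring groups (y axis, limma estimate with 95% interval), for the 56 regions in order along the chromosome within each gene (x axis). Filled points passed an adjusted p of 0.05 over all 49124 regions. The largest positive differences lie at Apoe and Lpl, and the 2 filled points below 0 are both at Cd9.

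Among the lipid transport genes, Apoe had the largest rank difference of the 56 regions. The region lay at chr7:19693314-19693814, 2680 bp beyond the 3′ end of Apoe and 905 bp from Apoc1, the next apolipoprotein gene of the cluster, so that Apoc1 and not Apoe is its nearest gene. It was open in 2 of 11 saline and 12 of 12 LPS libraries (exact conditional test, adjusted p = 0.00199). The 5 CON_SAL scores were 0.0, 27.4, 0.0, 0.0 and 0.0, and the 6 MIA_SAL scores had a lowest and median of 0.0 and a highest of 8.54. After LPS the CON scores ran from 52.4 to 82.4 with a median of 73.0, and the 5 MIA scores were 72.3, 49.5, 43.4, 83.5 and 53.8. Every LPS library stood above every saline library. The difference was 62.0 ± 4.57 points (limma estimate ± SE, adjusted p = 1.58e-09), and 32.3 points in lists of 16974 peaks (adjusted p = 0.00256). With all deposited peaks in place of the shortened lists, presence differed by 55 percentage points and no longer passed (exact conditional test, adjusted p = 0.0512).

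The other 3 Apoe regions did not pass. A region at chr7:19683586-19684086, 12408 bp beyond the gene, lay 2376 bp from Gm44805 and Apoc4, its nearest coding genes. It was open in 0 of 11 saline and 6 of 12 LPS libraries (exact conditional test, adjusted p = 0.0576). Its rank difference was 7.60 points (limma, adjusted p = 0.150). A region at chr7:19700944-19701444, inside the listed gene span with its centre at -2006 bp from the nearest listed start, was open in 4 of 11 saline and 8 of 12 LPS libraries. A region at chr7:19715422-19715922, between Tomm40 and Nectin2, was among the strongest of every list, at 97.9 ± 1.53 after saline (SD, n = 11), and differed by -0.65 points after LPS (limma, adjusted p = 0.754). No region lay within 1 kb of a listed Apoe start. In the shortened lists the Apoe locus held 1.8 ± 0.45 peaks in CON_SAL (SD, n = 5), 4.14 ± 1.35 in CON_LPS (n = 7), 1.5 ± 0.55 in MIA_SAL (n = 6) and 3.4 ± 0.89 in MIA_LPS (n = 5). No LPS library held fewer than 3 and no saline library more than 2. In the full deposited lists the counts overlapped, at 1 to 6 in CON_SAL and in MIA_SAL, 3 to 9 in CON_LPS and 3 to 8 in MIA_LPS.

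At Lpl, which encodes lipoprotein lipase, a region at chr8:68926159-68926659 was open in 0 of 11 saline and 12 of 12 LPS libraries (exact conditional test, adjusted p = 0.000175). It lay 19477 bp beyond the gene at higher coordinates, close to the limit of the 20 kb rule, with Lpl as the nearest coding gene and Ints10 96999 bp away. CON_LPS scores ran from 34.4 to 63.3 with a median of 58.2, and MIA_LPS scores were 60.3, 54.7, 51.8, 39.3 and 53. All LPS libraries were in the middle of their lists and none was near the end of its list. The difference was 52.3 ± 3.01 points (limma, adjusted p = 3.04e-11), the smallest adjusted p among the members. In lists of 16974 peaks it was 10.1 points (limma, adjusted p = 0.0333). The authors' fold enrichment over background ran from 5.92 to 12.4 in the LPS libraries, with a median of 7.06. The other Lpl region, in the gene body at chr8:68881145-68881645, had a peak in 7 of 23 libraries and did not pass.

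**Figure D2:**
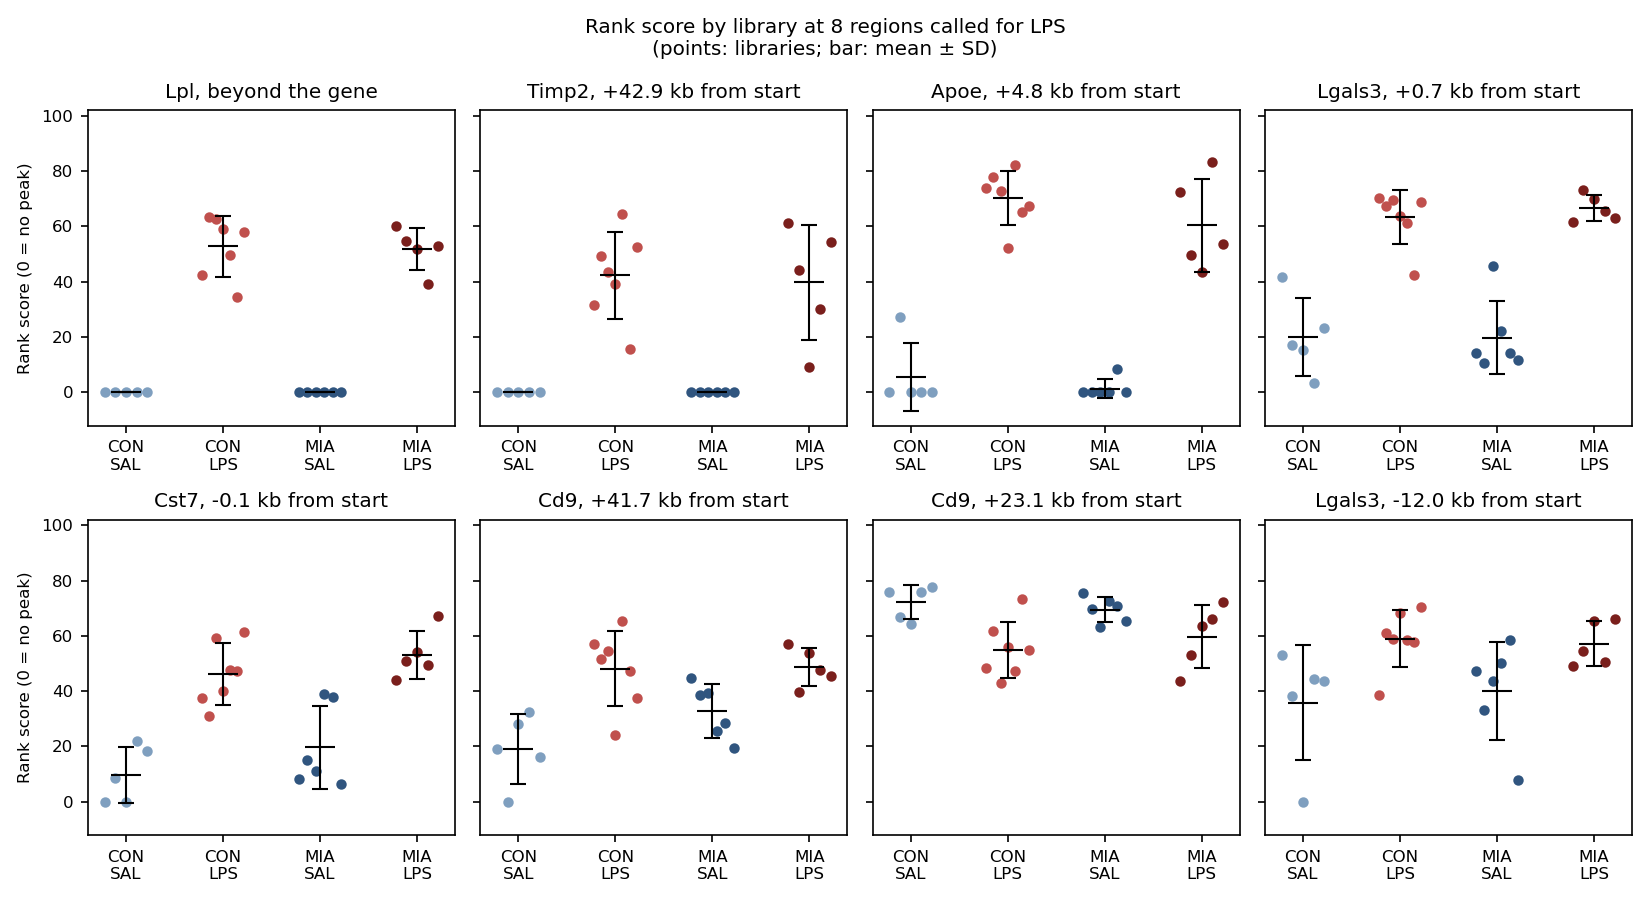
Rank score (y axis, 0 where no peak was found) in each library of the 4 groups (x axis) at 8 regions that passed for LPS, each point 1 library and each bar the mean ± SD. The saline points lie at 0 at Lpl and Timp2, and at the Cd9 region 23.1 kb from the start the LPS points are lower.

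Timp2 encodes tissue inhibitor of metalloproteinases 2, which restrains and also activates matrix metalloproteinases. A region in its gene body, at chr11:118312266-118312766 and 42895 bp from the start, had no peak in any of the 11 saline and a peak in all 12 LPS libraries (exact conditional test, adjusted p = 0.000175). CON_LPS scores ran from 15.7 to 64.5 with a median of 43.7, and MIA_LPS scores were 61.3, 44.1, 9.13, 30.0 and 54.2. These LPS libraries were spread more widely than at Lpl. With all deposited peaks the difference in presence was 61.7 percentage points (exact conditional test, adjusted p = 0.0384). The rank difference was 41.1 ± 5.29 points (limma, adjusted p = 5.87e-06). In lists of 16974 peaks it was 5.53 points and did not pass (limma, adjusted p = 0.259). The Timp2 start, at chr11:118355152-118355652, was open in all 23 libraries, at 80.5 ± 4.93 after saline (SD, n = 11) and 75.4 ± 6.78 after LPS (n = 12), and did not pass (limma, adjusted p = 0.197). A region between Timp2 and Usp36, 11 bp from Usp36, was the strongest of all 56, with a mean rank score of 99.4 over the 23 libraries.

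Lgals3 encodes galectin-3, a sugar-binding lectin released by activated microglia that binds TREM2. A region at chr14:47374322-47374822, in the gene body and 712 bp from the start, was open in all 23 libraries and rose in rank. The CON_SAL scores were 41.8, 17.3, 15.4, 3.32 and 23.2, and the MIA_SAL scores ran from 10.7 to 45.6 with a median of 14.3. CON_LPS scores ran from 42.4 to 70.3 with a median of 67.3, and MIA_LPS scores were 61.7, 73.1, 69.8, 65.6 and 63.0. In 11 of 12 LPS libraries the score was above all saline libraries, the exception being CON_LPS replicate 6 at 42.4, below the 45.6 of MIA_SAL replicate 3. The difference was 45.0 ± 4.55 points (limma, adjusted p = 2.00e-07).

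The region centred 110 bp upstream of the Lgals3 start, chr14:47373500-47374000, was open in 5 of 11 saline and 7 of 12 LPS libraries and did not pass (limma, 9.69 ± 7.90 points, adjusted p = 0.426). Peaks at the gene were up to 1004 bp wide, and 1 wide peak could open both regions, as in MIA_LPS replicate 5, where both scored 63.0. Another Lgals3 region, 12010 bp upstream at chr14:47361600-47362100, had a score of 38.2 ± 18.3 after saline (SD, n = 11) and 58.3 ± 9.13 after LPS (n = 12), a difference of 20.1 ± 6.04 points (limma, adjusted p = 0.0212). Only 6 of its 22 peaks had a summit within 100 bp of the region's centre. Counting only peaks with a summit inside it, the difference was 16.2 points and did not pass (limma, adjusted p = 0.327), nor did it with peaks ranked by fold (adjusted p = 0.0872).

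Cst7 encodes cystatin F, an inhibitor of lysosomal cysteine cathepsins that is among the strongest transcripts of disease-associated microglia. Its called region, chr2:150570032-150570532, spans the start of transcription, with its centre 133 bp upstream, and covers the whole promoter printed above. The CON_SAL scores were 0.0, 8.63, 0.0, 21.8 and 18.3, and the MIA_SAL scores ran from 6.41 to 39.1 with a median of 13.2. CON_LPS scores ran from 31.1 to 61.5 with a median of 47.3, and MIA_LPS scores were 44.1, 50.7, 54.3, 49.6 and 67.3. The groups overlapped little: 10 of 12 LPS libraries were above every saline library. The difference was 35.1 ± 4.76 points (limma, adjusted p = 1.19e-05), while presence, 9 of 11 saline and 12 of 12 LPS libraries, was too common to be tested. In lists of 16974 peaks the difference was 7.44 points and did not pass (limma, adjusted p = 0.185). The other 2 Cst7 regions, 3177 and 11618 bp upstream, did not pass.

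Cd9 encodes a tetraspanin of the cell surface that organises integrins and other membrane proteins. Of its 18 regions, 3 passed as higher and 2 as lower in rank after LPS. A region 7163 bp beyond the gene, chr6:125452853-125453353, rose from 26.5 ± 12.7 after saline (SD, n = 11) to 48.4 ± 10.9 after LPS (n = 12), a difference of 22.6 ± 4.63 points (limma, adjusted p = 0.00115). In 9 of 12 LPS libraries its score was above all saline libraries. A pair of gene-body regions had no peak in any saline library. The one at chr6:125484718-125485218 was open in 8 of 12 LPS libraries (exact conditional test, adjusted p = 0.0119), and the one at chr6:125493053-125493553, 1457 bp from the start, also in 8 of 12 (adjusted p = 0.0131). The region directly beside the latter, chr6:125492529-125493029, was open in 5 of 11 saline and 0 of 12 LPS libraries. Its presence could not be tested, and its rank difference of -4.92 points did not pass (limma, adjusted p = 0.142). Whether the neighbouring peaks are a shift of 1 peak was not tested.

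A pair of regions in the far part of the Cd9 gene body passed as lower after LPS. The region at chr6:125471360-125471860, 23150 bp from the start and open in all 23 libraries, scored 70.7 ± 5.21 after saline (SD, n = 11) and 56.9 ± 10.5 after LPS (n = 12), a difference of -13.47 ± 3.55 points (limma, adjusted p = 0.00912). In 8 of 12 LPS libraries it was below every saline library. The region at chr6:125461189-125461689, 33321 bp from the start, was open in 7 of 11 saline and 0 of 12 LPS libraries (exact conditional test, adjusted p = 0.0102). Its saline peaks were weak, with CON_SAL scores of 8.67, 11.8, 0.0, 16.7 and 28.8 and MIA_SAL scores of at most 17.6. With all deposited peaks its presence differed by -36.19 percentage points and did not pass (exact conditional test, adjusted p = 0.373).

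A further gene-body region, chr6:125483344-125483844, passed within MIA offspring alone, where it was open in 0 of 6 saline and 5 of 5 LPS libraries (Fisher's exact test, adjusted p = 0.0140). Its MIA_LPS scores were 0.14, 8.75, 55.5, 2.45 and 34.9, so in some of them the region lay close to the end of the shortened list. In CON offspring it was open in 2 of 5 saline and 4 of 7 LPS libraries, and over both groups it did not pass (exact conditional test, adjusted p = 0.0572). The difference of its rank change between the offspring groups was 16.7 points with a 95% interval from -13.30 to 46.7. The start of Cd9 itself, chr6:125494516-125495016, was open in every library, at 66.3 ± 7.12 after saline (SD, n = 11) and 58.8 ± 13.4 after LPS (n = 12), and did not pass (limma, adjusted p = 0.131).

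All 5 Cd9 rank calls ended with the identity number of the samples as a block, with differences of 16.3, -6.48, -12.62, 10.8 and 14.1 points at 41657, 33321, 23150, 9792 and 1457 bp from the start (limma, adjusted p from 0.0899 to 0.395). The call at 41657 bp, the region beyond the gene, also ended in lists of 16974 peaks (6.28 points, adjusted p = 0.164). That of the region 9792 bp from the start was lost without MIA_LPS replicate 1 (14.0 points, limma, adjusted p = 0.0579) or 4 (13.8 points, adjusted p = 0.0562), and that of the region 1457 bp from the start without MIA_LPS replicate 5 (11.4 points, adjusted p = 0.0502). With peaks ranked by fold, the differences 9792, 23150 and 33321 bp from the start were 5.01, -13.03 and -4.25 points and did not pass (limma, adjusted p = 0.251, 0.103 and 0.111).

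**Figure D3:**
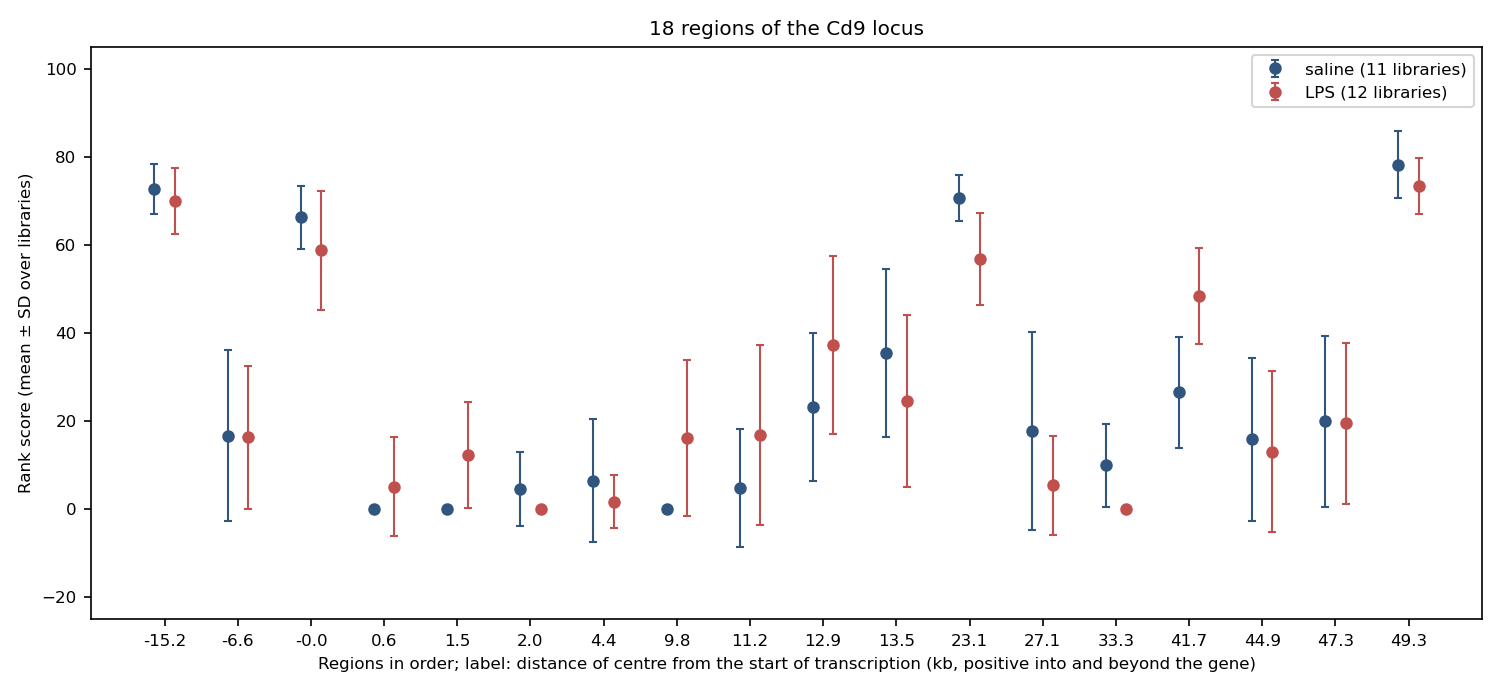
Mean rank score ± SD over 11 saline and 12 LPS libraries (y axis) at the 18 Cd9 regions in order of their distance from the start of transcription in kb (x axis, evenly spaced, positive into and beyond the gene). Among the regions that passed over both offspring groups LPS lies above saline at 41.7, 9.8 and 1.5 kb and below it at 23.1 and 33.3 kb.

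No region of the other 4 genes passed. Spp1 encodes osteopontin, a secreted phosphoprotein and integrin ligand. Its start region, chr5:104434799-104435299, which holds the promoter with the ISRE and PU.1 matches, was open in 4 of 11 saline and 2 of 12 LPS libraries, with no score above 26.9, and differed by -3.29 points with a 95% interval from -11.34 to 4.75. A region 9059 bp upstream, chr5:104425802-104426302, was open in 6 of 11 saline and 1 of 12 LPS libraries and did not pass (exact conditional test, adjusted p = 0.106). Its rank difference was -12.62 points with a 95% interval from -23.85 to -1.39 (limma, adjusted p = 0.109). The Spp1 region with the highest mean score lay 18470 bp from the gene inside the neighbouring gene Pkd2 (chr5:104459273-104459773). It was open in all 23 libraries, at 60.8 ± 7.05 after saline (SD, n = 11) and 55.3 ± 9.95 after LPS (n = 12; limma, adjusted p = 0.276).

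Gpnmb encodes a transmembrane glycoprotein of lysosomes that is induced in lipid-laden phagocytes. A region in its gene body, chr6:49039469-49039969 and 3201 bp from the start, was open in 5 of 11 saline and 6 of 12 LPS libraries, and its difference was 5.11 points with a 95% interval from -6.65 to 16.9. The strongest region of the locus lay inside Malsu1 at chr6:49073578-49074078. It scored 79.3 ± 2.95 after saline (SD, n = 11) and 78.1 ± 4.57 after LPS (n = 12), and the 95% interval of the difference ran from -5.23 to 2.47 points.

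Clec7a encodes dectin-1, a receptor for fungal beta-glucans. Its start region, chr6:129472580-129473080, was open in 2 of 11 saline and 1 of 12 LPS libraries. A region 1898 bp upstream, chr6:129474433-129474933, was open in 5 of 11 saline and 9 of 12 LPS libraries. Its CON_SAL scores were 23, 17.3, 0.0, 0.0 and 7.68, its MIA_SAL scores ran from 0.0 to 36.3, its CON_LPS scores from 0.0 to 45.6, and its MIA_LPS scores were 47.7, 37.7, 0.0, 0.0 and 19.3. The groups overlapped, and the difference of 14.5 ± 6.40 points did not pass (limma, adjusted p = 0.121). Without MIA_SAL replicate 6 it was 17.5 points and passed (limma, adjusted p = 0.0442).

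Ch25h encodes cholesterol 25-hydroxylase, which makes the oxysterol 25-hydroxycholesterol and is known as an interferon- and LPS-inducible gene of macrophages. None of its 4 regions was open in more than 9 of 23 libraries. The region at its start, chr19:34474596-34475096, was open in 4 of 11 saline and 5 of 12 LPS libraries with no score above 32.6. The difference was 0.17 points with a 95% interval from -7.64 to 7.97.

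**Figure D4:**
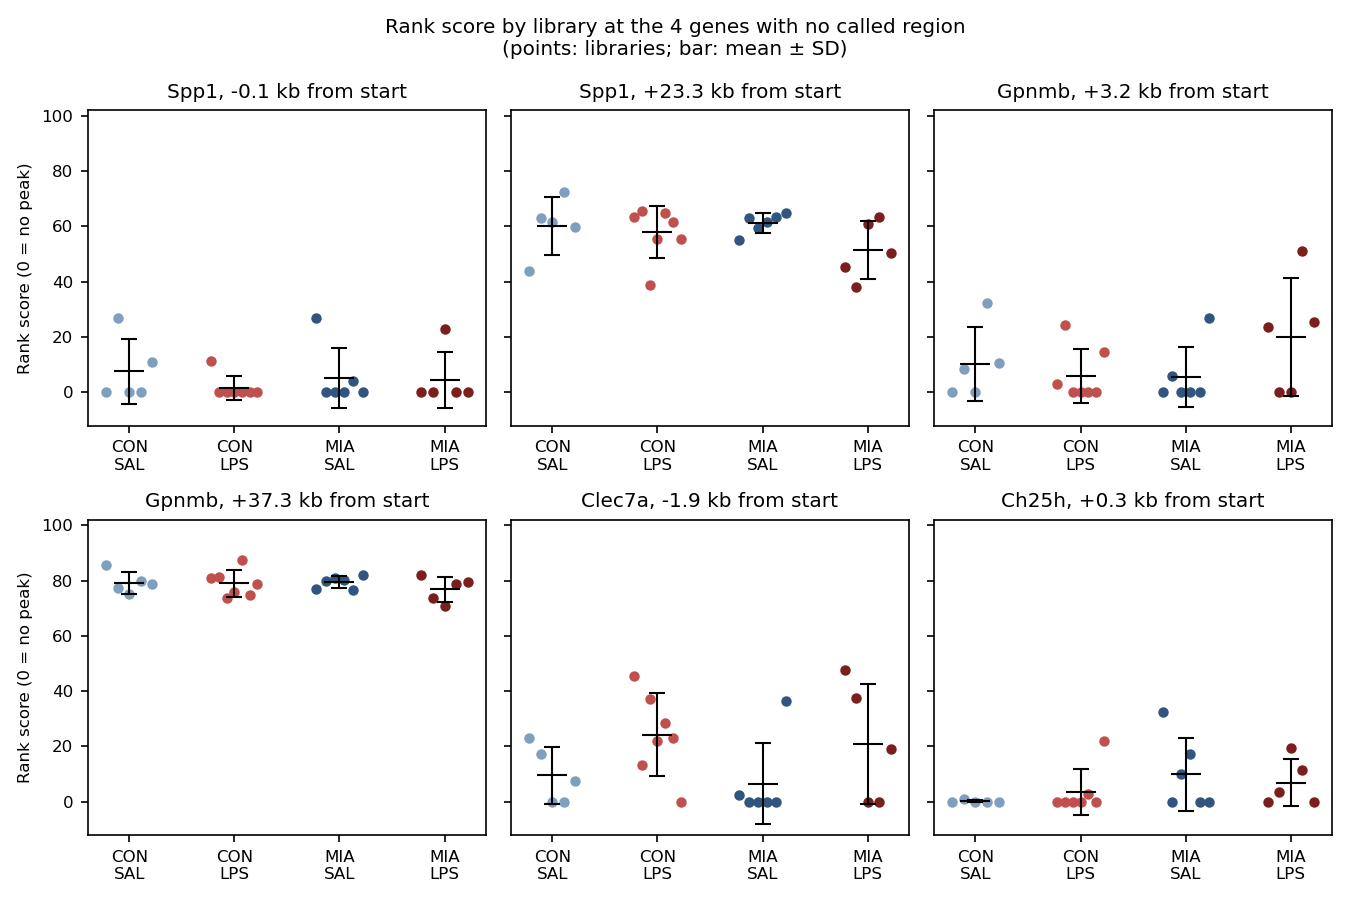
Rank score (y axis) in each library of the 4 groups (x axis) at 6 regions of Spp1, Gpnmb, Clec7a and Ch25h, each point 1 library and each bar the mean ± SD. The LPS and saline points overlap in every panel.

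At the called regions the LPS difference had the same sign in both offspring groups. Those calls used the same libraries, so the shared sign is not separate support. In CON offspring, 2 of 7 testable member regions passed Fisher's exact test with adjustment over all regions, all of them gains, against 12.4% of all testable regions (9.92% gains and 2.52% losses). In MIA offspring 3 of 10 passed, also gains, against 15.4% (13.0% gains and 2.49% losses). Both CON calls were those of Lpl and Timp2 (adjusted p = 0.0101 each, Fisher's exact test), which also passed in MIA (adjusted p = 0.0140 each). At Apoe the MIA test gave an adjusted p of 0.0541 (Fisher's exact test), with 1 of 6 saline and 5 of 5 LPS libraries open. The LPS difference in rank was 64.9 ± 6.62 points in CON and 59.1 ± 7.64 in MIA at Apoe, and 52.8 ± 4.16 and 51.8 ± 3.46 at Lpl (difference of means ± SE). At Lgals3 it was 43.2 ± 7.30 and 46.9 ± 5.81, and at Cst7 36.6 ± 6.21 and 33.6 ± 7.21.

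None of the 56 regions differed in its LPS effect between MIA and CON offspring after adjustment with limma (smallest adjusted p = 0.988), where 0.00204% of all regions passed, and 2 of 56 had an unadjusted p under 0.05. Those were the Cd9 start, where the difference of effects was -16.84 points with a 95% interval from -33.35 to -0.32, and a Cd9 region 10397 bp beyond the gene, where it was 29.8 points. The intervals at the strongest LPS regions were wide. They ran from -24.82 to 13.2 points at Apoe, from -13.53 to 11.5 at Lpl, from -24.66 to 19.4 at Timp2, from -15.25 to 22.6 at Lgals3 and from -22.81 to 16.8 at Cst7, so a moderate difference between offspring groups would not have been detectable.

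**Figure D5:**
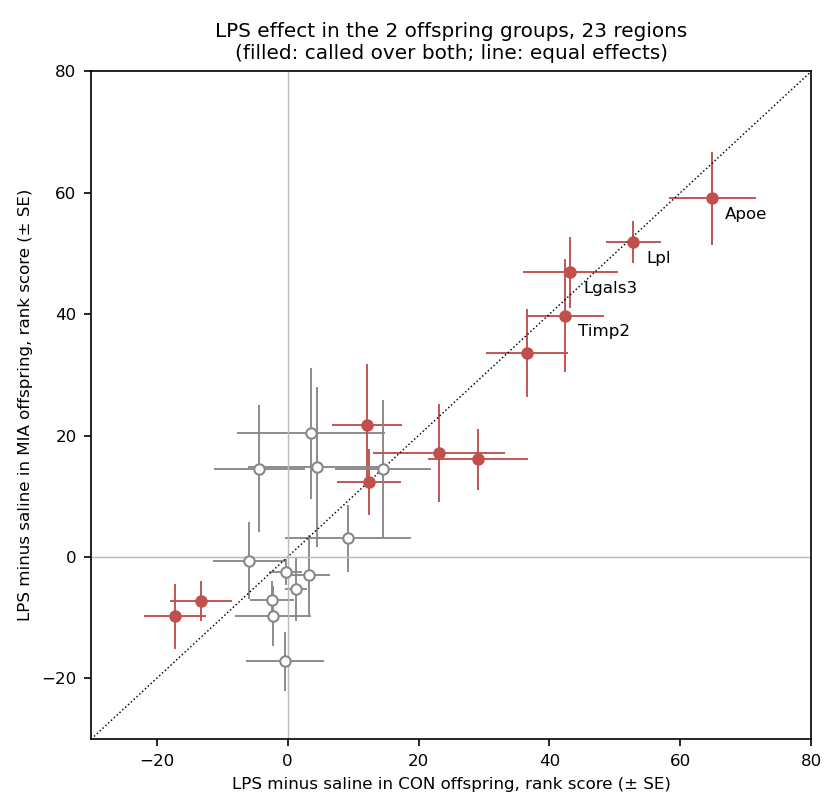
LPS minus saline rank score in CON (x axis) and MIA (y axis) offspring with standard errors, for 23 named regions; filled points passed over both groups and the dotted line marks equal effects. The filled points keep their sign in both groups, and Apoe, Lpl, Lgals3 and Timp2 lie near the line.

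Prenatal history itself gave no call among the members. In presence, 0 of 20 regions passed over both treatments, 0 of 6 after saline and 0 of 3 after LPS (exact tests, adjusted over all regions), as did 0.0% of all regions in each, and at an unadjusted p under 0.05 there were 1, 0 and 0. In rank, 0 of 56 passed (limma, smallest adjusted p = 0.939), against 0.00204% of all regions, with 2 at an unadjusted p under 0.05. The Apoe region near Tomm40 and inside the listed gene span was lower in MIA by a difference of -14.56 points with a 95% interval from -26.30 to -2.82. The Cd9 region 15233 bp upstream of the start, open in all 23 libraries, scored 76.5 ± 4.67 in MIA_SAL (SD, n = 6) and 68.0 ± 2.17 in CON_SAL (n = 5), and 74.4 ± 4.03 in MIA_LPS (n = 5) and 66.8 ± 8.05 in CON_LPS (n = 7). Neither passed after adjustment (limma, adjusted p = 0.960 and 0.939).

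The main differences were also seen in parts of the series. The regions were called on these same libraries, so the values describe the differences and are not separate support for them. In libraries of fewer than 20000 sorted cells the LPS difference was 58.3 ± 1.82 points at Lpl, 55.5 ± 6.93 at Apoe, 44.4 ± 5.26 at Lgals3 and 34.5 ± 7.91 at Cst7 (difference of means ± SE, 6 LPS and 7 saline libraries). In libraries of 20000 cells or more, 6 LPS and 4 saline, it was 46.5 ± 3.90, 71.9 ± 4.55, 48.5 ± 5.66 and 33.4 ± 5.24 points in the same order. The samples carry identity numbers of unstated meaning, and 6 pairs of an LPS and a saline library share one. MIA_LPS replicate 3 is in 2 of these pairs, with MIA_SAL replicates 3 and 4, so the 6 pairs are not all separate. Some libraries of the same group also share a number, and whether these are independent replicates was not tested. In all 6 pairs the LPS library was higher at Apoe, Lpl, Timp2, Cst7, the Cd9 region beyond the gene, and both called Lgals3 regions. The other called Cd9 regions were less even over the pairs: the region 23150 bp from the start was lower after LPS in 4 of 6 and higher in 2, that at 33321 bp was lower in 3, that at 9792 bp higher in 3 and that at 1457 bp higher in 4, the rest of these last 3 being ties at 0. The Gpnmb region inside Malsu1, which did not pass, was lower after LPS in all 6 pairs, by -9.84 to -1.53 points. Ranked by fold in place of −log10 p within the same lists, the mean score was 59.7 after LPS and 2.71 after saline at Apoe, 64.4 and 0.0 at Lpl, 67.6 and 32.2 at Lgals3, and 38.6 and 14.9 at Cst7.

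Other genes of the same programme were counted from 2 lists. Both lists were chosen with earlier results of these data known, so their shares beside all regions are descriptive. Of 25 further disease-associated microglia genes, 13 had a region more often open after LPS and 2 a region more often open after saline in the exact conditional test, 1 of these with both, and 11 had neither. Their 183 regions gave 16 gains and 2 losses among 69 testable ones, 23.2% and 2.90%, beside 15.3% and 8.39% of all testable regions. By rank (limma), 29 of the 183 regions were higher and 12 lower after LPS, 15.8% and 6.56%, beside 10.5% and 9.47% of all regions. In that test 16 genes had a higher and 8 a lower region, 8 of these with both. The median rank difference was -0.83 points, beside -0.60 over all regions. The median difference in presence was 10.7 percentage points, beside -1.19 over all testable regions. The smallest p-values were at Trem2, the lipid-sensing receptor, and Csf1, the microglial growth factor, both open in 0 of 11 saline and 12 of 12 LPS libraries. Their regions lay 3755 and 12467 bp from the genes. Cd83, a surface marker of activation, Ank, a pyrophosphate exporter, and Ccl6, a chemokine, each had a region open in 0 of 11 saline and 10 of 12 LPS libraries.

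Of 29 further genes of lipid uptake, storage, efflux and sterol synthesis, 7 had a region more often open after LPS and 1 a region more often open after saline, 1 of these with both, and 22 had neither. Of 62 testable regions 9 gained and 1 lost, 14.5% and 1.61%, beside 15.3% and 8.39% of all testable regions, so the share of gains was near the background. By rank (limma), 22 of their 175 regions were higher and 7 lower after LPS, 12.6% and 4%, beside 10.5% and 9.47% of all regions. In that test 12 genes had a higher and 7 a lower region, 2 of these with both. The median difference in presence was 0.83 percentage points. The gains with the smallest p-values were at Cd36 and Msr1, scavenger receptors for oxidised lipoproteins, each with a region open in 0 of 11 saline and 11 of 12 LPS libraries, and at Abca1, the cholesterol exporter, open in 1 of 11 and 12 of 12. Plin2, the coat protein of lipid droplets, had a region open in 0 of 11 and 10 of 12. The fifth was Apoc1, through the region it shares with Apoe.

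The 5 genes outside the list whose regions had the rank pattern most like that of the Lpl region were Piwil2, Larp4b, Phactr4, Rhov and Scarb2, with Pearson correlations of 0.980, 0.980, 0.977, 0.976 and 0.976 over the 23 libraries. Each of these regions was open in 12 of 12 LPS libraries and in at most 2 of 11 saline libraries, so the correlation mostly repeats the split by treatment. All of these points share the libraries and their list lengths.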

How the data were processed

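ATAC-seq peak lists of 23 libraries were analysed. The submitters' processing notes name MACS2, DiffBind, Bowtie2, cutadapt, SAMtools and Picard and the builds mm10 and GRCm38, with no version or setting given in the sources used here. The authors' deposited columns, read from their values because the lists have no header, were the fold enrichment (a ratio), the −log10 p and −log10 q of each peak (lowest −log10 q 1.301) and the summit offset. Lists were shortened to 33949 peaks by −log10 p. Windows of 250 bp to either side of each summit were merged best rank first, and those with a peak in at least 3 libraries, covering 50% of the region or with 50% of the peak's length in it, were kept. Presence was tested with Fisher's exact test or an exact conditional test over 2 strata, two-sided, where a p of 0.01 was attainable (Python 3.11.15, scipy 1.17.1), and rank scores with limma 3.58.1 in R 4.3.3 without a block, all with Benjamini-Hochberg adjustment over all regions. Both tests were run on simulated data. The simulated rank scores were normal values without the floor at 0 of the real scores, so that run does not cover regions with many scores of 0. Named were every called region, the region nearest to each start, the strongest region of genes without a call, the 5 genes with the most similar pattern and at most 5 genes per list by p. The members, lists and tests were chosen with earlier results of these data known. Alternatives varied the list length, ranking measure, overlap, distance, filters, q threshold, sorted cell number, identity number, blocks and single libraries. Depth is unknown, so no detection limit could be given. Gene positions and promoters were from RefSeq.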

Additional observations from a re-analysis of the deposited data

Results flagged for a closer look

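Libraries apart from the rest of their group were sought in rank scores at called regions and in numbers of member peaks. Of 41 groups of 5 to 7 libraries, 7 had one. A chance rate of about 1 in 20 does not hold for scores with a floor at 0. There, 1 library with a peak among others at 0 is always flagged. At Apoe, CON_SAL replicate 2 scored 27.4 where the other 4 were 0.0, and MIA_SAL replicate 5 scored 8.54 where the other 5 were 0.0. CON_SAL replicate 2 was also apart at the Cd9 region 11166 bp from the start, with 44.5 against 8.85 for the next. At the Lgals3 region inside the gene, MIA_SAL replicate 3 was high with 45.6 against 22.1 for the next, and CON_LPS replicate 6 was low with 42.4 against 61.4. At the Lgals3 region 12010 bp upstream, CON_SAL replicate 3 was at 0.0 where the next was 38.1, and CON_LPS replicate 1 was at 38.6 where the next was 57.7. The rank differences of the Apoe and both Lgals3 regions passed the test (limma) without each of these libraries in turn.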

How the results depend on the processing

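No direction was reversed under any alternative among results that passed. Counts of called members that moved by more than 1.5 times, from 6 (presence), 2 (presence, CON), 3 (presence, MIA) and 11 (rank), were as follows. Within 50 kb the counts, from more regions, were 12 of 42 for presence, 5 of 17 for presence in MIA and 21 of 99 for rank. The shares over all tested regions were 23.7%, 15.4% and 20% in the same order. Within 5 kb the CON count was 1 of 4, beside 12.4% of all tested regions. Libraries of fewer than 20000 cells gave 2 of 9 for presence, beside 6.23%. Without the filter on the attainable p, the CON and MIA counts were both 0 of 56, since all 49124 regions then entered the adjustment. The share over all regions was 0% in both. Without identity numbers 01 to 03 the CON count was 4 of 8, beside 19% of all tested regions. With all deposited peaks the CON count was 1 of 13, beside 6.62%. With lists of 16974 peaks it was 1 of 2, beside 15.5%, and that of MIA 1 of 2, beside 32.1%. In those lists rank called 5 of 19, beside 17.1%. With peaks ranked by fold the CON count was 1 of 9, beside 9.53%, and that of rank 7 of 55, beside 14.9%. Except where a cause is named, the cause was not tested. Leaving out each library in turn gave 6 to 8 presence calls, 2 to 3 in CON, 3 to 4 in MIA and 10 to 12 in rank. The counts for prenatal history and for the difference of effects were 0 under every alternative that ran. Presence within 1 group could not be run in the cell-number classes, nor MIA against CON in libraries of 20000 cells or more, nor the MIA and saline tests without identity numbers 01 to 03, as no region could enter.

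Nothing in the labels pairs the replicate numbers. Libraries of different groups with the same number had a mean correlation of deviations of 0.0296 over 31 pairs, with 9 over 0.1. Those with other numbers had a mean of -0.00485 over 166 pairs, with 16 over 0.1. Whether the replicate numbers mark a pairing was not tested. The 6 pairs that share an identity number, of which 2 hold MIA_LPS replicate 3, had a mean of 0.116 and a lowest of 0.0427. Of these 4 were over 0.1, so not every pair passed 0.1. The mean over pairs with other identity numbers was -0.00304. The labels do not say what the identity number marks. With the replicate block, rank called 12 members, and 0 for prenatal history and 0 for the difference of effects. With the block the Clec7a region 1898 bp upstream passed (16.5 points, limma, adjusted p = 0.044). With the identity number as a block, which leaves few degrees of freedom, rank called 6 of 56, beside 8.83% of all regions. The Cd9 calls that ended under it had differences of -12.62 against -13.47 points at 23150 bp from the start, 14.1 against 12.4 at 1457 bp, 16.3 against 22.6 at 41657 bp, 10.8 against 16.9 at 9792 bp and -6.48 against -10.20 at 33321 bp. Rank calls also ended at Cd9 33321 bp from it with a −log10 q of at least 5 (limma, adjusted p = 0.0693), and, without identity numbers 01 to 03, at 1457 bp from it (adjusted p = 0.0652) and at Lgals3 12010 bp upstream (adjusted p = 0.0986). Without those numbers the Cd9 start passed as lower after LPS (-14.92 points, adjusted p = 0.0225). Presence over both groups at the Cd9 region 11166 bp from the start passed without CON_SAL replicate 2 or 4 or CON_LPS replicate 1, 2 or 3 (exact conditional test, adjusted p from 0.0265 to 0.0441). The unknown depth limits all statements on absent peaks.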
